A study of Mus musculus with 36 samples.

Results

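The respiratory chain of mitochondria passes electrons from NADH and succinate to oxygen through complexes I to IV, and complex V, the ATP synthase, makes ATP from the proton gradient that complexes I, III and IV build. Most subunits are encoded in the nucleus and imported. Described here are the genes whose symbol begins with Nduf (complex I and its Ndufaf assembly factors), Uqcr (complex III), Atp5 (complex V) or Cox with a digit from 4 to 8 (complex IV), together with the complex II genes Sdha, Sdhb, Sdhc and Sdhd and the cytochrome c1 gene Cyc1. The rule used symbols alone and no measured value. It found 91 genes among the 18193 genes that had a probe set of their own, and 89 of the 91 were among the 14115 genes tested. By symbol, 36 members belonged to complex I, 8 were Ndufaf assembly factors, 4 belonged to complex II, 9 to complex III, 17 to complex IV and 17 to complex V. Cox7b2 and Ndufb4 were not tested because their signals stayed low, with highest signals of 25.5 and 32.3 on any array.

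Livers of mice given acetaminophen, an analgesic that injures the liver at high dose, were profiled on Affymetrix arrays. The strains were SJL, which the series text calls resistant, and SMJ (SmJ), DBA (DBA/2) and C57 (C57B6), which it calls sensitive. Every mouse was fasted overnight and then received 300 mg/kg intraperitoneally, except that the 0 h mice were taken before dosing. Each strain was sampled at 0, 3 and 6 h with 3 mice per group, which gave 12 groups and 36 arrays. There was no vehicle group among these samples, so time after dosing, the injection and longer fasting cannot be told apart. The labels give no age, sex, day or batch.

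Acetaminophen is oxidised in hepatocytes to a reactive quinone imine that binds proteins, many of them mitochondrial, once glutathione is used up, and inhibited respiration is a textbook feature of its toxicity. Nuclear genes of the chain are controlled in part by the factors NRF1, GABP and YY1, with coactivators of the PGC-1 family. Several complex IV subunits exist as a liver or general form and a muscle form.

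Promoter sequence was available from RefSeq (GRCm38.p6) for 74 of the 91 members, as windows from 250 bases before to 50 bases after each start. The NRF1 motif GCGCANGCG, searched on both strands with overlapping matches counted once, was in 20 of the 74, or 27.0%, against 13.2% of the 11344 tested genes with a window and 7.03% of all 27025 genes. The YY1 motif AAGATGGCG was in 7 of 74 (9.46%), against 3.06% of the tested genes. The GABP motif CCGGAAGT was in 5 of 74 (6.76%), against 7.79% of the tested genes. No motif contains another, and a match describes the sequence, not binding. The promoters of 4 members are printed to show these motifs, each as the 250 bases before the start, read 5′ to 3′ on the gene's own strand, with matches in capitals. Cox6a1 (chr5:115348959-115349208, minus strand), a complex IV subunit, holds 2 NRF1 matches. Ndufs5 (chr4:123718187-123718436, minus strand), a complex I subunit, holds 1 NRF1 match. Atp5h (chr11:115419920-115420169, minus strand), a complex V stalk subunit, holds 1 NRF1 match and, nearer the start, 1 GABP match on the opposite strand. Atp5j (chr16:84834977-84835226, minus strand, the first of its starts), another stalk subunit, holds 1 YY1 match. The windows of Atp5e, Ndufb7, Ndufaf1 and Ndufaf3, whose values are given below, hold none of these letters in this form.
Cox6a1: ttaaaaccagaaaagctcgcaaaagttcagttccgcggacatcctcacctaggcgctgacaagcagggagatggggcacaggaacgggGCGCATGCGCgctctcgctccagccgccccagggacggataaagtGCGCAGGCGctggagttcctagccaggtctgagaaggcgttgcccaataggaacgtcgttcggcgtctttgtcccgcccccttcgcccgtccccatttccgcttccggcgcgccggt
Ndufs5: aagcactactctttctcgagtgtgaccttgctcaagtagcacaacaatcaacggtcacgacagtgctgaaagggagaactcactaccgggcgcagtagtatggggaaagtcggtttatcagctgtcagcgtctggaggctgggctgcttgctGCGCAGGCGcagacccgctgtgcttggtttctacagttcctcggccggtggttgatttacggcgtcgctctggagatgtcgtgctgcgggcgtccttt
Atp5h: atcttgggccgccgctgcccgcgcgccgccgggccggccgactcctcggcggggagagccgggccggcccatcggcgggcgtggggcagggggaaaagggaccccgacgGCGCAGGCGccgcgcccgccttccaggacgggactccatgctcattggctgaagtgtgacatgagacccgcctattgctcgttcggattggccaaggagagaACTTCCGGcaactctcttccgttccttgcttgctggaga
Atp5j: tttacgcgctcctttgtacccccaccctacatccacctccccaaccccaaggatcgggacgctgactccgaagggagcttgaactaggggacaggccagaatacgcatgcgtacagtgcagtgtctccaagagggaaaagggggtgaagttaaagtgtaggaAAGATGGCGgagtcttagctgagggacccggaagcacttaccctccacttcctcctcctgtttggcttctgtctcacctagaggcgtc

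Values are linear signals scaled by the authors so that each array's trimmed mean was 150, and changes were tested on the log2 scale (log2 of signal plus 2.77) with limma over all 36 arrays, with Benjamini-Hochberg adjustment over the 14115 genes. A signal cannot be compared between genes, because each probe set binds with its own strength. The tissue label fitted its markers: the summed signal of 9 hepatocyte genes lay between 96220 and 186843 on every array, and arrays of the same group correlated at 0.916 to 0.964. Group means of the actin 3′/5′ signal ratio, a measure of RNA quality, went between 0 and 6 h from 1.71 to 1.45 for SJL, from 1.57 to 1.35 for SMJ, from 1.77 to 1.44 for DBA and from 1.64 to 1.67 for C57. The Gapdh 3′/5′ ratio moved less, from 0.766 to 0.715 for SJL and from 0.719 to 0.746 for SMJ. For DBA it went from 0.721 to 0.724 and for C57 from 0.766 to 0.779. In SJL the actin ratios at 0 h (1.59 to 1.87) and 3 h (1.41 to 1.51) did not overlap. As a covariate the actin ratio therefore cannot be separated from time in that comparison. In bulk liver, fewer cells of a type and less RNA per cell cannot be told apart. Each mouse had a number of its own. In the main fit p-values rest on the spread between mice within groups, pooled for each gene over the 12 groups. They do not measure the spread of a single group, and 3 mice per group limit the precision.

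Most members varied little over the study. Of the 89 tested members, 81 lay above the arrays' median signal of 30.8 on all 36 arrays, and for these the highest of the 12 group means was 1.37 times the lowest in the median member. The ratio was under 1.5 for 57 of the 81 and under 2 for 76. The 5 members at 2 or more were Ndufaf1 (2.69), Ndufaf8 (2.35), Ndufaf6 (2.31), Ndufs5 (2.26) and Ndufaf4 (2.13), which are 4 complex I assembly factors and 1 complex I subunit. The other 8 tested members had low signals on some arrays, and their ratios ran from 1.91 to 8.76. These were Cox8b, Cox4i2, Cox7c, Cox6b2, Cox6a2, Cox7a1, Ndufa4l2 and Ndufaf5, most of them forms typical of muscle, lung, testis or hypoxic cells.

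At 6 h after dosing, averaged over the 4 strains, changes were small, and for most members their direction depended on how the arrays were scaled. As deposited, 34 members were higher than at 0 h and 4 were lower, against 12.7% of all tested genes higher and 20.3% lower, but after quantile normalization 3 were higher and 13 lower. Shares of all tested genes, here and below, are for the arrays as deposited only. The members' median change was 0.11 on the log2 scale as deposited (1.08-fold), -0.04 after quantile normalization and 0.16 after scaling each array to its 75th percentile, where 39 were higher and 3 lower. The 533 genes with a mean signal at or above the members' median gave 263 higher and 45 lower as deposited (median 0.15), then 62 and 149 after quantile normalization, and 290 and 36 after 75th percentile scaling. The direction of change turned between scalings for 47 of 89 members, was up in all 3 scalings for 30 and down in all 3 for 12. What held under every scaling was the small size of the changes: the 95% interval lay within 1.5-fold either way for 81 of 89 members (91%) as deposited, 81 after quantile normalization and 83 after 75th percentile scaling, against 53.9% of all tested genes as deposited. Most members are bright and that background includes dim genes, so the contrast is not between genes of like signal. Whether narrow intervals were particular to the chain was not tested.

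Split by complex, the calls as deposited at 6 h were 10 higher and 1 lower of 35 in complex I, 5 higher of 9 in complex III, 7 higher of 16 in complex IV and 12 higher of 17 in complex V, whereas quantile normalization gave 2 higher and 5 lower in complex I, none in complex III, 1 lower in complex IV and 1 higher with 3 lower in complex V. None of the 4 complex II genes passed as deposited, at log2 changes of 0.05 for Sdha, 0.11 for Sdhb, 0.01 for Sdhc and -0.02 for Sdhd, and Sdha was lower after quantile normalization (-0.14, adjusted p = 0.032). The Ndufaf assembly factors were 3 lower and none higher of 8 under each of the 3 scalings.

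**Figure D1:**
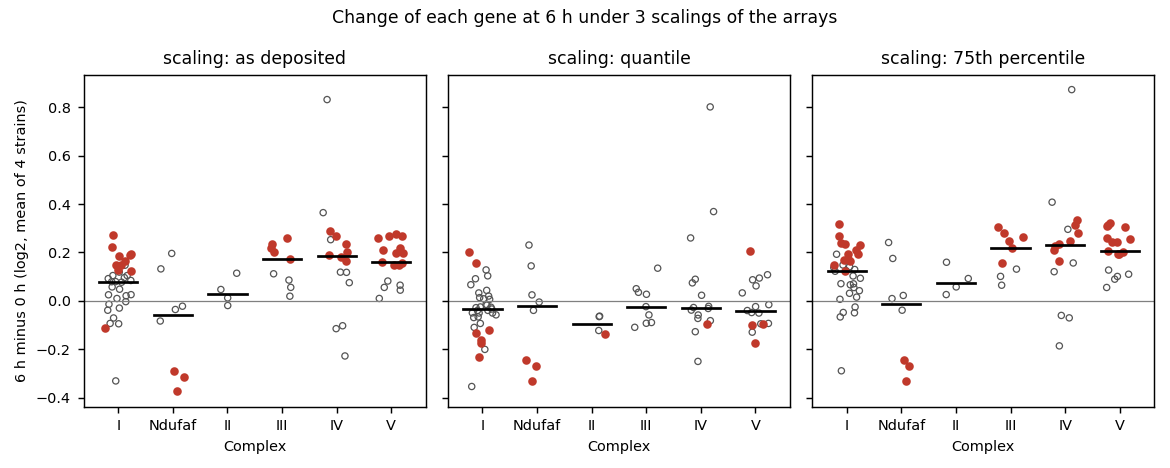
Change from 0 to 6 h (log2, mean of 4 strains) of each tested gene, by complex, with the arrays as deposited, after quantile normalization and after 75th percentile scaling. Filled red points passed an adjusted p of 0.05 (limma), open points did not, and bars are medians. The clouds of complexes I, III, IV and V shift across 0 between scalings, while 3 Ndufaf genes stay below it in all 3 panels.

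A set of 6 of the 89 tested members changed in the same direction with an adjusted p under 0.05 in all 3 scalings: Atp5e, Ndufa2 and Ndufb7 rose, and Ndufaf1, Ndufaf3 and Ndufaf6 fell. As deposited alone, 12.7% of all tested genes rose and 20.3% fell at 6 h. How many of all tested genes passed in all 3 scalings was not counted. The rule for naming genes named Ndufb7 in C57 at 6 h but not for the mean of the strains, and it was chosen here after its values were seen.

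Atp5e encodes the epsilon subunit in the central stalk of the ATP synthase. In SMJ its signals were 2030, 1878 and 1864 at 0 h and 2724, 2755 and 2462 at 6 h. The DBA mice read 2077, 2002 and 1875 against 2533, 2517 and 2215. In C57 the signals were 2110, 1929 and 1991 at 0 h and 2300, 2362 and 2295 at 6 h, and in SJL 1897, 1931 and 1893 against 1982, 2013 and 2396. In each strain all 3 mice at 6 h lay above all 3 at 0 h, and the mean log2 change ran from 0.15 in SJL to 0.46 in SMJ. The mean log2 change was 0.28 (SE 0.050, limma adjusted p = 9.71e-05), and it was 0.21 after quantile normalization and 0.32 after 75th percentile scaling.

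Ndufa2, an accessory subunit of complex I, showed a like rise of 0.27 (SE 0.052, limma adjusted p = 0.000168; 0.20 and 0.32 under the other scalings). Its signals in C57 were 2016, 1763 and 1836 at 0 h and 2416, 2418 and 2468 at 6 h, and in DBA 2137, 2070 and 1975 against 2537, 2804 and 2373, with no overlap in either strain. In SMJ 1 mouse at 0 h, at 2386, lay among the 6 h mice at 2313, 2488 and 2371, and in SJL the 6 h mice at 1915, 2054 and 2332 overlapped the 0 h mice at 1867, 1976 and 1860.

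Ndufb7, a complex I subunit on the intermembrane side, had signals in C57 of 1718, 1660 and 1420 at 0 h and of 2339, 2360 and 2319 at 6 h. In SJL they were 2447, 2194 and 2344 at 0 h and 2452, 2132 and 2202 at 6 h, so that SJL began at the level that C57 reached. The mean change was 0.22 (SE 0.059, limma adjusted p = 0.0045), and a second probe set of the gene gave 0.17 (adjusted p = 0.0146).

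Ndufaf1 encodes an assembly factor of the membrane arm of complex I. Its signals in SMJ fell from 478.9, 534.1 and 501.5 to 398.3, 357.1 and 351.2. The DBA mice went from 502.3, 526.0 and 455.6 to 339.7, 325.9 and 392.7. In SJL, where the level was lowest already before dosing, they were 231.5, 185.5 and 248.8 at 0 h and 178.0, 198.7 and 186.2 at 6 h. In C57 the groups overlapped, at 461.3, 394.6 and 365.8 against 399.8, 363.4 and 373.6. The mean change was -0.32 (SE 0.077, limma adjusted p = 0.0021) and -0.27 under both other scalings.

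Ndufaf3, another complex I assembly factor, fell by 0.29 (SE 0.058, limma adjusted p = 0.00032), or by 0.24 under both other scalings. Its signals in C57 were 325.7, 423.3 and 353.5 at 0 h and 279.2, 262.0 and 318.7 at 6 h, and in SMJ 375.8, 334.6 and 329.8 against 268.8, 299.2 and 265.5. In SJL they were 361.8, 374.9 and 384.0 against 340.9, 278.9 and 303.5, and in DBA 365.5, 340.5 and 334.6 against 323.6, 263.6 and 314.0, so the 6 h mice were below the 0 h mice in all 4 strains without overlap.

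Ndufaf6, which also serves complex I assembly, changed by -0.37 (SE 0.13, limma adjusted p = 0.0236). The widest change was in C57, at 287.0, 296.8 and 214.2 before and 112.6, 150.1 and 173.2 after dosing, whereas SJL read 263.0, 214.3 and 186.0 against 178.5, 245.3 and 236.3. Its call was lost when SMJ56 (-0.32, adjusted p = 0.0514), DBA115 (-0.32, adjusted p = 0.0546) or C57233 (-0.33, adjusted p = 0.0505) was left out, and with the actin ratio of each array as a covariate (-0.40, adjusted p = 0.132). Atp5e, Ndufa2, Ndufaf1 and Ndufaf3 kept their calls when any 1 of the 36 arrays was left out.

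**Figure D2:**
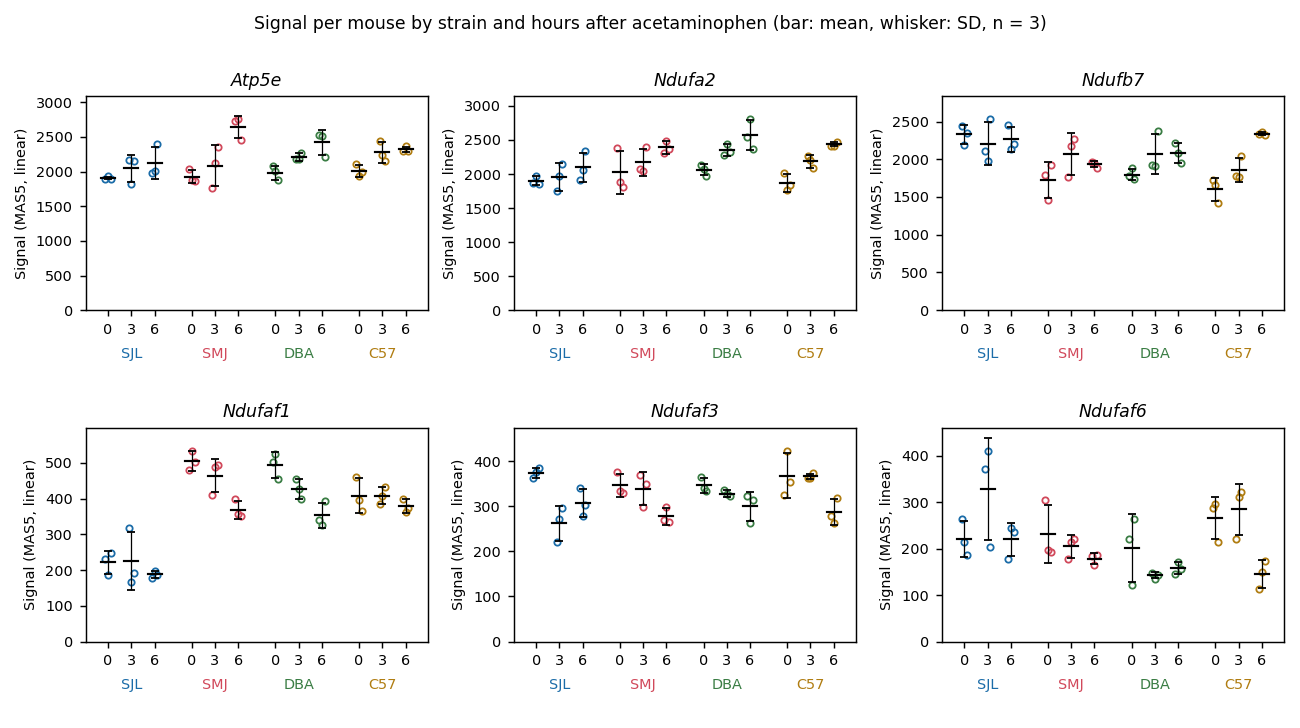
Signal per mouse (linear, 1 point per mouse) of the genes that changed alike under 3 scalings, by strain and hours after acetaminophen, with mean and SD of 3 mice. Atp5e, Ndufa2 and Ndufb7 are higher at 6 h than at 0 h in most strains, with Ndufb7 highest at the start in SJL, and Ndufaf1, Ndufaf3 and Ndufaf6 are lower, with Ndufaf1 lowest in SJL at every time.

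Several other members with changes of like size as deposited took the other sign after quantile normalization. Cox6a1, whose promoter is printed above, had a change of 0.29 as deposited and -0.04 after quantile normalization. Atp5b, the catalytic beta subunit of the ATP synthase, was at 0.27 and -0.05, Atp5g3, a subunit of the rotor ring, at 0.27 and -0.04, and Uqcrb, a complex III subunit, at 0.26 and -0.09, with -0.07 from its other probe set. Cox4i1, a nuclear-encoded subunit of complex IV, was at 0.24 and -0.02. Cox5b (0.27), Atp5d (0.26) and Uqcr10 (0.24) completed the 10 largest rises as deposited among members past the threshold. Ndufa6, a complex I subunit, was lower as deposited (-0.11, limma adjusted p = 0.038) and after quantile normalization (-0.23), but did not pass after 75th percentile scaling (-0.07) or when any 1 of 14 arrays was left out.

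Beside Atp5b, Cox4i1 and the complex II genes above, further core or much studied members had these mean changes at 6 h as deposited. In complex I, Ndufs1, which carries iron-sulfur clusters, was at -0.03 and Ndufv1, which binds NADH, at 0.08, and Ndufa4, named for complex I but now counted with complex IV, was at 0.10. In complex III, Uqcrc1 was at 0.02, Cyc1 at 0.09 and the Rieske protein Uqcrfs1 at 0.17. In complex IV, Cox5a was at 0.20, and the supercomplex factor Cox7a2l was at 0.12. Atp5a1, the catalytic partner of Atp5b, was at 0.16. Of these, Uqcrfs1, Cox5a and Atp5a1 passed as deposited and none of the 3 after quantile normalization, with Uqcrfs1 at 0.04 (limma adjusted p = 0.661), while Cox5a (-0.03), Atp5a1 (-0.09) and Ndufa4 (-0.09) took the other sign. With the actin ratio as a covariate the call for Uqcrfs1 was lost too (adjusted p = 0.135).

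Genes that serve the chain but lie outside the rule were also counted, from lists that were drawn up with earlier results of these data known. The list of other assembly factors had 34 tested genes, of which 17 fell and 1, Cox18, rose (0.20) at 6 h as deposited, with 17 and 1 after quantile normalization, 15 and 1 after 75th percentile scaling and a median of -0.18. Of all tested genes, 20.3% fell and 12.7% rose at 6 h as deposited, which is the background for this list and the lists that follow. Surf1, a complex IV assembly factor, fell by 0.34 (limma adjusted p = 2.67e-05). Lrpprc, which stabilises mitochondrial mRNA, fell by 0.29 (adjusted p = 0.00015), Coa6, needed for copper insertion into complex IV, by 0.51 (adjusted p = 0.000436), and Sdhaf3, a complex II assembly factor, by 0.32 (adjusted p = 0.000483). No gene of this list passed at 3 h.

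Among 15 regulators of mitochondrial biogenesis, 8 fell and 1 rose at 6 h, with 8 and 1 after quantile normalization, 7 and 1 after 75th percentile scaling and a median of -0.27 as deposited. Ppara, the nuclear receptor for fatty acid oxidation, fell by 1.14 (limma adjusted p = 4.13e-07). Gabpa, the DNA-binding subunit of GABP, fell by 0.59 (adjusted p = 2.74e-09), and Tfam, which packages mitochondrial DNA and starts its transcription, by 0.28 (adjusted p = 5.43e-05). The gene that rose was Pprc1, a coactivator of the PGC-1 family (0.60, adjusted p = 0.00012). Ppara and Gabpa were lower by 3 h as well, at -0.65 and -0.28. Tfam at 3 h, at -0.16, passed as deposited but not under the other scalings.

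Of 9 electron carriers and inputs, 4 passed as higher at 6 h as deposited, and none as lower, but 2 as higher and 2 as lower after quantile normalization. They were Slc25a4 (0.53) and Slc25a5 (0.29), which exchange ADP for ATP, Gpd2 (0.36), which feeds electrons from glycerol phosphate, and Cycs (0.26), cytochrome c, with Slc25a5 at -0.01 and Cycs at 0.00 after quantile normalization. Against the same 12.7% of all tested genes higher and 20.3% lower, of 13 citric acid cycle genes Mdh2 (0.29) was higher and Idh2 (-0.27) and Dlst (-0.14) lower as deposited, while quantile normalization gave none higher and 3 lower. None of the 13 protein genes of mitochondrial DNA was on the table.

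Markers of cells moved with time as well. At 6 h as deposited 6 of 9 hepatocyte markers were higher (none after quantile normalization, with 2 lower), as were 5 of 6 neutrophil markers, 3 of 9 Kupffer cell and macrophage markers and 3 of 5 endothelial markers. No lymphocyte marker of 3 passed, and no muscle marker of 9, whose median was 0.80. With the log2 sum of the muscle genes on each array as a covariate, 22 members were higher and 4 lower at 6 h, and with the log2 actin 3′/5′ ratio as a covariate 22 were higher and 2 lower. Both covariates were chosen after seeing the data. The part of the other markers in these changes was not tested.

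At 3 h, averaged over the strains, 3 members were higher and none lower as deposited, against 3.24% of all tested genes higher and 4.02% lower, and none passed after quantile normalization. They were Ndufa10 (0.20, limma adjusted p = 0.0283), a complex I subunit, Uqcrfs1 (0.18, adjusted p = 0.0279) and Cox5b (0.18, adjusted p = 0.0316). With 75th percentile scaling 11 passed, and with the actin ratio as a covariate none did. Leaving out 1 array at a time gave 0 to 7 calls, the fewest without SMJ57 and the most without SJL39.

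From 3 to 6 h, 2 members were higher and 2 lower, against 6.94% and 9.77% of all tested genes. Ndufaf6 (-0.38) and Ndufaf1 (-0.23) were lower, and Uqcrb (0.17, but -0.02 after quantile normalization) and Cox6a2 (0.61, limma adjusted p = 0.0352) were higher. Cox6a2 is the muscle form of a complex IV subunit, and with the muscle genes' sum as a covariate its change was 0.30 and no member passed. Leaving out 1 array at a time gave 0 to 9 calls, none without DBA158, DBA166 or C57230 and the most without DBA169.

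Taken strain by strain, calls were few except in SMJ and C57 at 6 h. In SJL at 3 h, no member was higher and 3 were lower, against 4.44% of all tested genes higher and 5.67% lower, and 60 of 89 members had a negative change, beside 7817 of all 14115 tested genes, with the same median of -0.05 for both. Ndufaf3 read 361.8, 374.9 and 384.0 at 0 h and 219.7, 271.2 and 296.4 at 3 h, a fall of 0.52 on the log2 scale (SE 0.12, limma adjusted p = 0.00487). Ndufb3, a complex I subunit, read 1174, 1210 and 1239 against 1047, 748.8 and 998.6 (-0.39, adjusted p = 0.0287), and did not pass after 75th percentile scaling (adjusted p = 0.0523). Cox6b2, the testis form of a complex IV subunit, read 61.7, 67.4 and 52.7 against 2.65, 14.95 and 40.4 (-1.97, adjusted p = 0.0093), with 3 h values near or below the median signal of 30.8. For all 3 genes the 3 h mice lay below the 0 h mice.

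The summed signal of 10 muscle genes was lower in the same mice, between 46.8 and 579 at 3 h against 1476 to 2120 in SJL at 0 h. With that sum as a covariate, Ndufaf3 alone kept its call in SJL at 3 h, Ndufb3 was at -0.24 (limma adjusted p = 0.301) and Cox6b2 at -1.59 (adjusted p = 0.102). The actin ratio as a covariate also left only Ndufaf3. Without SJL42 there were 5 calls, without SJL39 Cox6b2 was at -1.19 (adjusted p = 0.0842), and without SJL40 Ndufb3 was at -0.24 (adjusted p = 0.21).

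In SJL at 6 h no member passed by limma, against 7% of all tested genes, and 4 had an unadjusted p under 0.05, while limma with array weights called 1. The lowest p-values were those of Cox8c, Ndufa6 and Ndufaf3.

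In SMJ at 3 h no member passed by limma either, against 0.205% of all tested genes, with 13 at an unadjusted p under 0.05, and limma with array weights called 1. Atp5k, a subunit at the dimer interface of the ATP synthase, came nearest (0.46, limma adjusted p = 0.23). At 6 h, 21 members were higher and 1 lower as deposited, against 8.87% and 12.5% of all tested genes, but 2 were higher and 8 lower after quantile normalization, and 26 higher and none lower after 75th percentile scaling. Atp5k read 2612, 2138 and 2148 at 0 h and 3305, 3425 and 3451 at 6 h, with no overlap, a rise of 0.57 (SE 0.13, adjusted p = 0.00268), though the other rule for choosing probe sets gave 0.32 (adjusted p = 0.106). Atp5k and Atp5e (0.46, adjusted p = 0.00152) passed as higher under all 3 scalings. Uqcrb (0.50), Atp5b (0.49), Cox6a1 (0.47) and Cox4i1 (0.46) did not, and after quantile normalization Uqcrb was at -0.21, Atp5b at -0.08, Cox6a1 at -0.13 and Cox4i1 at -0.02. Ndufaf1 was lower (-0.45, adjusted p = 0.0373), and did not pass under the other scalings (adjusted p = 0.085 and 0.0925) or without SMJ57, SMJ58, SMJ102 or SMJ103, nor with the muscle or actin covariate (adjusted p = 0.0656 and 0.0576).

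The 22 calls in SMJ at 6 h became 12 without SMJ57, 14 without SMJ58, 13 without SMJ101 and 15 with the muscle genes' sum as a covariate. The muscle sums in SMJ ran from 98.9 to 4613 at 0 h and from 2019 to 4044 at 6 h.

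In DBA at 3 h the only call was Cox7c, a complex IV subunit whose chosen probe set was dim, at 39.2, 43.9 and 51.6 before and 24.5, 23.8 and 2.09 after dosing (-1.64), against 1.46% of all tested genes called in either direction, and it was lost without DBA113, DBA114, DBA115 or DBA160. Under the other rule for choosing probe sets Cox7c did not pass (-1.17, limma adjusted p = 0.365), and the only call was Ndufa12, a complex I subunit, as higher (1.72, adjusted p = 0.00858). At 6 h Ndufa2 was higher (0.32, limma adjusted p = 0.0427) and Ndufaf1 lower (-0.49, adjusted p = 0.0375), against 4.85% of all genes higher and 7.74% lower. Quantile normalization gave no call and 75th percentile scaling 11, and both calls were lost without DBA113, DBA114, DBA115, DBA166 or DBA168 (in the last case at adjusted p = 0.201 and 0.141), while there were 6 without DBA169.

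In C57 at 3 h no member passed by limma, against 0.283% of all tested genes, and 5 had an unadjusted p under 0.05. At 6 h, 12 were higher and 1 lower, against 4.39% and 5.75% of all tested genes, with 4 higher and 1 lower after quantile normalization and 8 and 1 after 75th percentile scaling. Ndufa13, a complex I subunit also known as GRIM-19, read 4114, 3823 and 4103 at 0 h, 4646, 5114 and 4723 at 3 h and 5863, 6405 and 6874 at 6 h, so that each time point lay above the one before without overlap. Its rise at 6 h was 0.67 (SE 0.14, limma adjusted p = 0.00201). Ndufb7 rose by 0.55 (adjusted p = 0.00287), and Cox8a, the liver form of a small complex IV subunit, was at 0.41 (adjusted p = 0.0382), a call lost without C57181, C57182, C57233, C57236 or C57237. Ndufs3, a core subunit of complex I, read 2557, 2612 and 2553 at 0 h and 3379, 3175 and 3025 at 6 h (0.31, adjusted p = 0.0144). Ndufaf6 fell by 0.87 (adjusted p = 0.0277), a call lost without C57180, C57181, C57233 or C57236. Ndufa13, Ndufb7, Ndufa2, Ndufs3 and Ndufaf6 passed in the same direction under all 3 scalings.

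The 13 calls in C57 at 6 h became 4 without C57233, 5 without C57181, C57182 or C57236, 7 without C57180, 8 without C57237 and 6 with the muscle genes' sum as a covariate. Fits on the 6 arrays of a strain and time alone called no member in SJL at 3 h or in SMJ, DBA or C57 at 6 h.

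**Figure D3:**
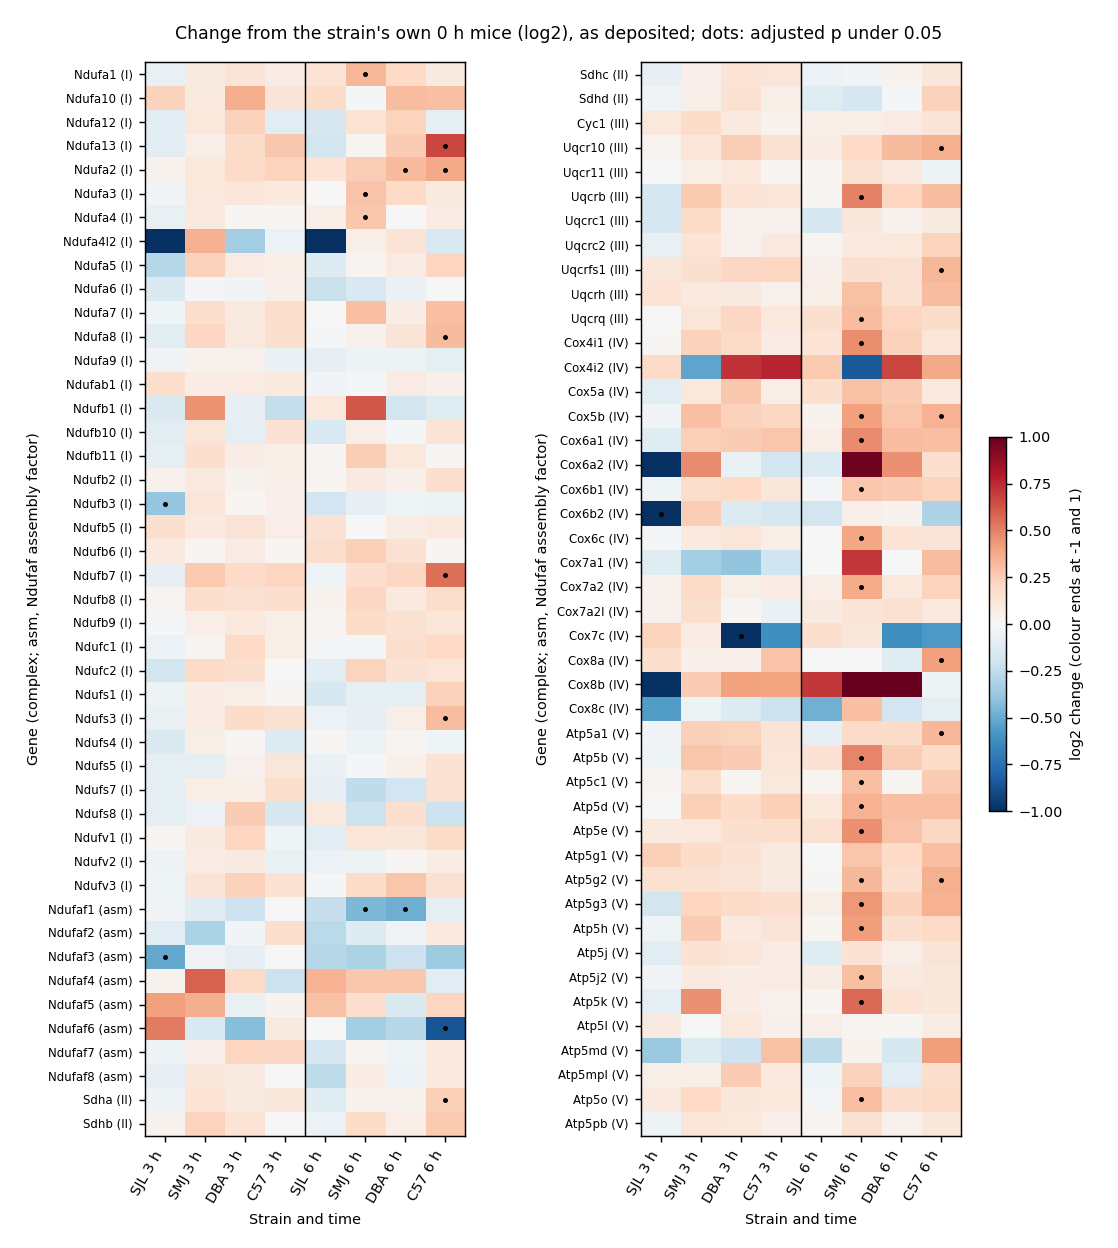
Log2 change of each of the 89 tested genes from the strain's own 0 h mice, as deposited, in each strain at 3 and 6 h (3 mice per group), with complex in brackets. Dots mark an adjusted p under 0.05. SMJ at 6 h has 21 dots on higher genes and 1 on a lower gene and C57 at 6 h has 12 and 1, but the colours depend on the scaling (in SMJ at 6 h 2 members were higher and 8 lower after quantile normalization).

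Whether strains differed in their change was tested directly. At 3 h, the SJL change, set against the average of the remaining strains, was lower for 3 members and higher for none, against 2.49% and 2.13% of all tested genes. They were Ndufaf3 (-0.48, limma adjusted p = 0.0387), Cox6b2 (-1.95, adjusted p = 0.0435) and Ndufb3 (-0.45, adjusted p = 0.0464), in all 3 scalings. In the other strains Ndufaf3 at 3 h stayed near its 0 h level, with means of 347 and 338 (SMJ), 347 and 328 (DBA) and 368 and 367 (C57). The median difference over members was -0.15 as deposited and -0.06 after quantile normalization, beside -0.23 as deposited over the 533 genes of high signal.

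These calls were close to the threshold. Leaving out 1 array ended the call for Ndufaf3 with 14 of the 36 arrays, for Cox6b2 with 19 and for Ndufb3 with 29, and the total ran from 0 to 5. With the muscle genes' sum as a covariate none passed, at -0.41 for Ndufaf3, -1.51 for Cox6b2 and -0.29 for Ndufb3, and with the actin ratio none did (adjusted p = 0.0688, 0.0952 and 0.0665). The test for any difference between strains at 3 h called no member by limma, against 1.95% of all tested genes, and 8 had an unadjusted p under 0.05.

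At 6 h, no member's change differed between SJL and the other strains by limma, against 0.248% of all tested genes, and 13 had an unadjusted p under 0.05. The median difference was -0.16 as deposited and -0.06 after quantile normalization, and 76 of 89 differences were negative as deposited, beside 7457 of all 14115 tested genes. Among the 533 genes of high signal 380 were negative, with a median of -0.15. The difference was negative in all 3 scalings for 57 members and turned sign for 22. The test for any difference between strains called Ndufa13 (F = 7.01, limma adjusted p = 0.0336), against 5.26% of all tested genes, with changes of 0.67 in C57, 0.25 in DBA, 0.03 in SMJ and -0.19 in SJL. After quantile normalization Ndufa13 did not pass (adjusted p = 0.0772), and the 1 member called was Ndufs3 (F = 7.91, limma adjusted p = 0.0224). Ndufa13 also did not pass with the actin ratio as a covariate (adjusted p = 0.0585), or without any 1 of 10 arrays.

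The strains other than SJL were also set against the rest at 6 h, a comparison added after seeing the data. For C57, 3 of the 89 tested members had a higher change and none a lower one, against 2.2% and 2.39% of all tested genes. Ndufa13 was higher by 0.63 (limma adjusted p = 0.0209) and passed under all 3 scalings. Ndufs3 was higher by 0.34 (adjusted p = 0.0399) and Ndufs1 by 0.35 (adjusted p = 0.043), but neither passed after 75th percentile scaling (adjusted p = 0.178 and 0.171) or with the actin covariate (adjusted p = 0.368 and 0.129). Leaving out 1 array ended the call for Ndufs3 with 11 arrays and for Ndufs1 with 19. Ndufs1 read 1353, 1483 and 1368 in C57 at 0 h and 1713, 1642 and 1587 at 6 h, while in SJL it read 1353, 1296 and 1337 against 1229, 1184 and 1161. Without C57236 or C57237 the call for Ndufa13 was lost (adjusted p = 0.061 and 0.0589), and with the actin ratio as a covariate it was at 0.72 (adjusted p = 0.0598). No member passed by limma for SMJ or for DBA, against 2.24% and 0.645% of all tested genes, with 12 and 0 at an unadjusted p under 0.05.

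Before dosing, 19 of 89 members differed between the strains by limma's F test, against 26.5% of all tested genes, and 17 of the 19 passed under all 3 scalings, all but Ndufa6 and Sdha.

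Ndufs5, an accessory subunit of complex I whose promoter is printed above, was lowest in SMJ, at 1229, 1027 and 1097, against 1665, 1703 and 1678 in DBA, 2027, 1732 and 2046 in SJL and 2044, 2135 and 2314 in C57 (1.94-fold between the extreme means, limma adjusted p = 7.86e-07). SMJ did not overlap with any other strain, while SJL and C57 overlapped. SMJ lay 0.78 below the mean of the others on the log2 scale (adjusted p = 5.11e-07) and remained lowest at 6 h, at 1130, 1025 and 1140. A probe set that Ndufs5 shares with its pseudogene Ndufs5-ps did not pass (adjusted p = 0.0524).

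Ndufaf1 was lowest in SJL, at a mean of 222 ± 32.7 (SD, n = 3) against 407 ± 49.0 for C57, 495 ± 35.8 for DBA and 505 ± 27.8 for SMJ (2.27-fold, limma adjusted p = 3.6e-06). Ndufaf8, another assembly factor, was lowest in SJL too, at 436.9, 386.4 and 434.8 against 573.7 to 794.4 elsewhere (1.83-fold), but a dimmer probe set of it did not differ (adjusted p = 0.631). Atp5mpl, a small membrane subunit of the ATP synthase, was lowest in DBA, at 1464, 1810 and 1581, against 2329 to 2792 in the other strains (1.61-fold, adjusted p = 1.99e-05).

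Cox6b1, the general form of the complex IV subunit that bridges its dimer, was highest in SJL, at 8094, 8337 and 7323 against 5481 to 7255 elsewhere (1.37-fold), and a second probe set differed likewise (adjusted p = 4.32e-05). Atp5h was highest in C57, at 6083, 5913 and 7060 against 3916 to 5390 elsewhere, or 0.49 above the mean of the others on the log2 scale, though its other probe set did not pass (adjusted p = 0.413). The complex I subunits Ndufa7 and Ndufv3 were lowest in SJL, by 1.43-fold and 1.38-fold between the extreme strains, with Ndufa7 at 2257, 2525 and 2502 there and from 3020 to 3856 elsewhere.

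**Figure D4:**
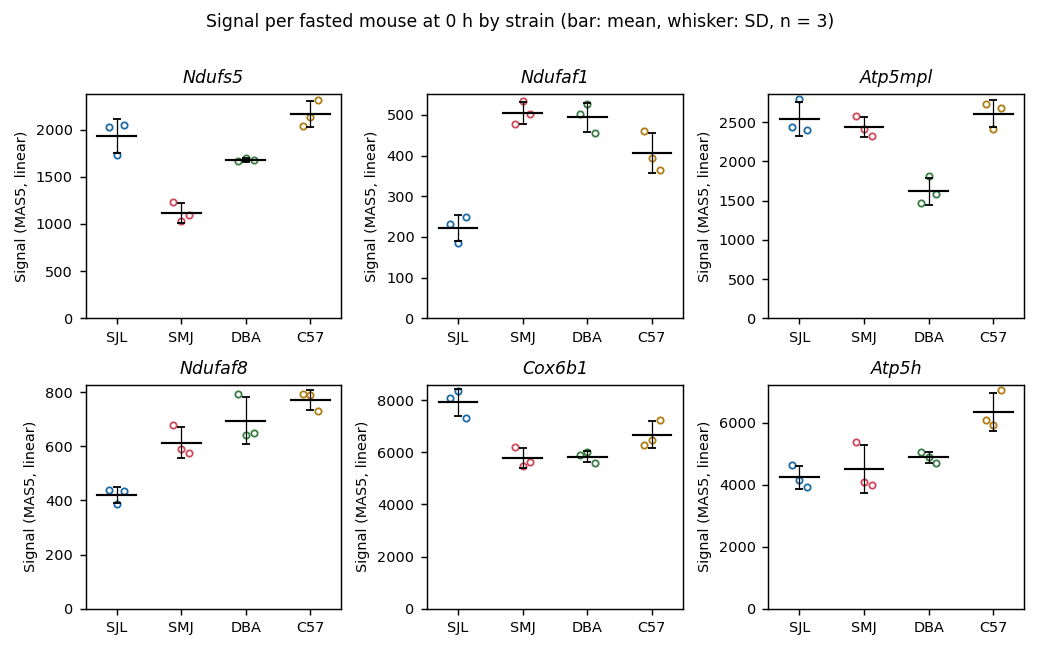
Signal per fasted mouse at 0 h (linear, 1 point per mouse) in the 4 strains, with mean and SD of 3 mice, for 6 genes that differed between strains. SMJ is lowest for Ndufs5, SJL for Ndufaf1 and Ndufaf8 and DBA for Atp5mpl, while SJL is highest for Cox6b1 and C57 for Atp5h.

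A difference between strains can depend on the probe set, and whether probes bind the transcripts of all 4 strains equally was not tested, for the genes above or for those with a single probe set. Of the 19 members that differed at 0 h, 14 had another tested probe set, and for 8 at least 1 of these passed. A pass in this F test does not require the same order of strains. Uqcr10, described below, and Sdha are among the 8 although their passing probe sets order the strains differently from the brightest. Of 35 members that did not differ and had another tested probe set, at least 1 passed for 8 too. The cases that follow were chosen after their values were seen. For Uqcr10, a small complex III subunit, the brightest probe set read higher in SJL (3301 ± 327, SD, n = 3) than elsewhere (means of 2286 to 2540), but the other two read far lower in SJL, at 30.5 against 592 to 841 and at 172 against 834 to 1175 (limma adjusted p = 1.56e-13 and 4.99e-13). For Ndufv1, the brightest probe set did not pass (adjusted p = 0.351), while the others read 863 in SJL against 2371 to 2539 and 1302 against 2257 to 2374 (adjusted p = 2.4e-10 and 1.81e-07). For Ndufa12, the brightest did not pass, and 2 of the others read highest in C57, at 3574 against 1859 to 1929 (adjusted p = 7.17e-06) and at 3007 against 1848 to 2008 (adjusted p = 0.000209).

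Complex IV has tissue forms of some subunits, and signals of the muscle forms are set beside those of muscle genes here. The summed signal of 10 muscle genes, among them Myh4, Myh1 and Acta1, ran from 46.8 to 4613 over the 36 arrays. In SMJ at 0 h, the mouse with a sum of 4613 had a Cox6a2 signal of 123, the mouse with 1360 had 41.0 and the mouse with 98.9 had 26.7. Cox8b, the muscle form of subunit 8, read 178 in the SJL mouse at 6 h with a sum of 2818, its highest signal, and 3.07 in the SJL mouse at 3 h with a sum of 116, its lowest. Between these the order was loose: Cox8b read 27.9 on the array with the lowest sum, 46.8, 55.3 in a C57 mouse with a sum of 387 and 8.73 in another with 660. At 6 h its mean change was 0.83 (limma adjusted p = 0.094). Cox6a1 and Cox8a, the forms used in liver, stayed between 7582 and 12951 and between 1823 and 3594 over the same arrays.

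Group ranges of the muscle sum overlapped between times in most strains. In DBA they were 104 to 363 at 0 h, 126 to 385 at 3 h and 153 to 1116 at 6 h, and in C57 124 to 1216, 109 to 854 and 660 to 997. In SJL they were 1476 to 2120, 46.8 to 579 and 248 to 2818. Only in SJL at 3 h did all 3 mice lie below the 3 at 0 h, and in no group did all 3 lie above the 0 h mice of their strain. The muscle form of the ADP/ATP carrier, Slc25a4, was among the carriers that were higher at 6 h. The median muscle marker was at 0.80 at that time, though no muscle marker passed, and a link to Slc25a4 was not tested.

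**Figure D5:**
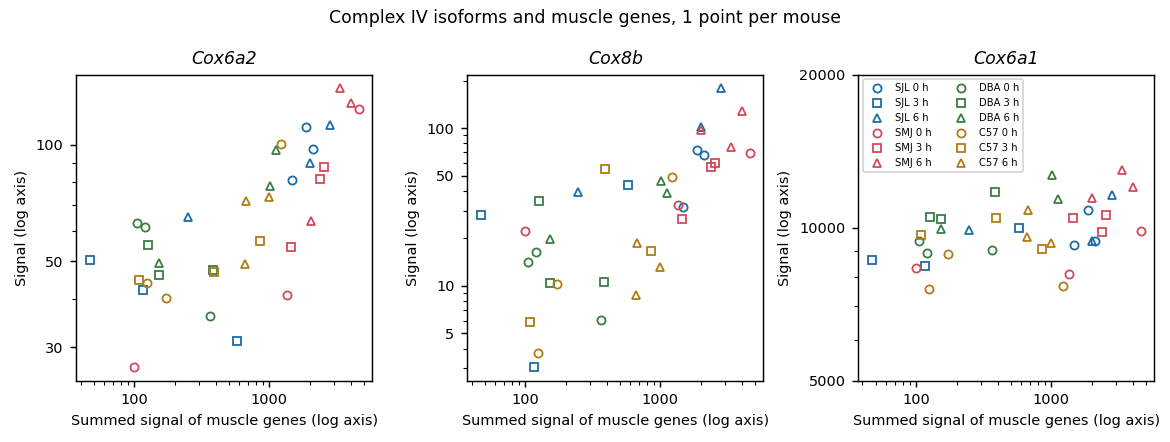
Signal of the complex IV genes Cox6a2 and Cox8b (muscle forms) and Cox6a1 (liver form) against the summed signal of 10 muscle genes, both on log axes, with 1 point per mouse and colour and shape for strain and time. The highest Cox8b signal, 178, is at a sum of 2818, with wide scatter at low sums, while Cox6a1 spans 7582 to 12951 across the whole range of sums.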

How the data were processed

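Liver RNA of 36 mice was measured on Affymetrix arrays, 1 per mouse. The deposited values are linear intensity signals per probe set made by the authors with MAS5, per the submitters' processing notes, whose version and build are not given in the sources used here. The 2% trimmed mean of each array was 150. Of 45101 probe sets, 64 were controls, 34945 had 1 symbol in the platform annotation, 932 several and 9160 none. Each gene was read from its probe set of highest mean signal (180 probe sets for the 91 members, 51 members with more than 1). Genes above the overall median of 30.8 on at least 3 arrays were tested on log2(signal + 2.77), an offset that is the 10th percentile and shrinks changes of dim genes. A limma (3.58.1, R 4.3.3) fit of group means over all 36 arrays (24 residual degrees of freedom) gave every contrast, with Benjamini-Hochberg adjustment over 14115 genes at 0.05. The fit was tested on simulated data. Alternatives were the offset, the filter, quantile and 75th percentile scaling, the choice of probe set, array weights, the 6 arrays of a comparison alone and leaving out each array, and, chosen after seeing the data, a covariate for muscle genes or the actin ratio.

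The members and lists were chosen with earlier results of these data known. Named were the 10 largest changes each way for means of the strains, the 3 largest each way per strain and time, the 8 smallest p-values of each test between strains (the 3 smallest where none passed), 13 core or much studied genes always, and up to 4 genes per other list. Promoter sequences came from RefSeq (GRCm38.p6).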

Additional observations from a re-analysis of the deposited data

Results flagged for a closer look

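At 3 h, the change in SJL differed from the mean change of the other 3 strains for 3 genes: Cox6b2 (-1.95 on the log2 scale), Ndufaf3 (-0.48) and Ndufb3 (-0.45), all lower in SJL. Of all tested genes, 2.49% were lower in this comparison. Leaving out 1 array ended the call with 19, 14 and 29 of the 36 arrays, in that order, and none passed with the muscle or actin covariate. Cox6b2 was dim in SJL at 3 h. At 6 h, the change in C57 differed from the mean of the others for Ndufa13 (0.63), Ndufs1 (0.35) and Ndufs3 (0.34), all higher in C57, in a comparison added after seeing the data. Of all tested genes, 2.2% were higher there, and of these members only Ndufa13 passed under all 3 scalings. Ndufa13 was also the gene called by the test for any difference between strains at 6 h (F = 7.01), but not after quantile normalization. No test for single outlying samples was run within groups of 3 mice.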

How the results depend on the processing

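No paired analysis was possible because each mouse has its own number and no number is shared between groups. Counts below are members called, beside 3 at 3 h, 38 at 6 h, 4 from 3 to 6 h, 3 in SJL and 1 in DBA at 3 h, 22 in SMJ, 2 in DBA and 13 in C57 at 6 h, 3 for SJL against the others at 3 h, 1 for any strains at 6 h and 19 at 0 h. Quantile normalization gave 0 at 3 h, 16 at 6 h, 10 in SMJ, 0 in DBA and 5 in C57 at 6 h, and turned the sign at 6 h for Cox6a1 (-0.0381), Atp5g3 (-0.0399), Atp5b (-0.0503), Uqcrb (-0.0926), Cox4i1 (-0.0225), Cox5a (-0.0315), Atp5a1 (-0.0932), Ndufa4 (-0.0933, not called) and Sdha (-0.14), for Uqcrb from 3 to 6 h (-0.0205), and in SMJ at 6 h for Uqcrb (-0.21), Atp5b (-0.0808), Cox6a1 (-0.128) and Cox4i1 (-0.0211). Scaling to the 75th percentile gave 11 at 3 h and 11 in DBA at 6 h. Without a filter there was 1 from 3 to 6 h, 0 in DBA and 7 in C57 at 6 h, 0 for SJL against the others at 3 h and 0 for any strains at 6 h. Requiring every array above the median gave 5 at 3 h, 7 from 3 to 6 h, and 0 at 3 h and 7 at 6 h in DBA. The other choice of probe set gave 1 for any strains at 3 h (0 otherwise) and, in DBA at 3 h, Ndufa12 in place of Cox7c. Array weights gave 13 at 3 h, 1 in SJL at 6 h, 1 in SMJ at 3 h (both 0 otherwise), 8 in DBA at 6 h, 1 for SJL against the others at 3 h, 3 for any strains at 6 h and 38 at 0 h. The 6 arrays of a comparison alone, with fewer degrees of freedom, gave 0 in SJL and DBA at 3 h and 0 in SMJ, DBA and C57 at 6 h. The muscle covariate gave 5 at 3 h, 0 from 3 to 6 h, 1 in SJL at 3 h, 0 in DBA and 6 in C57 at 6 h and 0 for SJL against the others at 3 h. The actin covariate gave 0 at 3 h, 24 at 6 h, 1 in SJL at 3 h, 1 in DBA at 6 h, 0 for SJL against the others at 3 h and 0 for any strains at 6 h. Leaving out 1 array gave 0 to 7 at 3 h, 33 to 40 at 6 h, 0 to 9 from 3 to 6 h, 2 to 5 in SJL and 0 to 2 in DBA at 3 h, 0 in SMJ and C57 at 3 h and in SJL at 6 h, 12 to 28 in SMJ at 6 h, beside 4 to 16 in C57 and 0 to 6 in DBA, 0 to 5 for SJL against the others at 3 h and 0 at 6 h, 0 to 1 for any strains at 3 h and at 6 h, and 16 to 24 at 0 h. Offsets of 1 and 16 moved no count of calls by over 1.5 times. The share of all tested genes called under these alternatives is not given here. The causes were not tested.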

Other observations

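Some chain genes share their probe sets with close copies and so were not members by the rule on single symbols. The probe set of Ndufs6 and Ndufs6b was higher at 6 h as deposited (0.17, limma adjusted p = 0.00531), and a bright probe set of Ndufb4, Ndufb4b and Ndufb4c was at -0.01. Of the 82 tested probe sets of members other than the brightest, 10 were higher and 6 lower at 6 h as deposited, beside 12.7% of all tested genes higher and 20.3% lower. Ndufaf4, a complex I assembly factor, is a case where they disagree: its brightest probe set was at 0.20 and did not pass, while its other was at -0.61 (adjusted p = 1.09e-05).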
